A study of Caenorhabditis elegans with 8 samples.

Results

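The baseline described here is the transcriptome of control Caenorhabditis elegans on day 3 of adulthood, as measured in the 4 empty-vector (EV) samples of an RNA-seq series of 8 samples. They were chosen by label alone. EV worms ate HT115 Escherichia coli carrying the L4440 plasmid without an insert, the usual control for feeding RNA interference, so they swallowed the bacterial strain and plasmid of such an experiment without double-stranded RNA against a worm gene. The other group of the series was fed against mtch-1, a gene for a mitochondrial carrier family protein, and is not analysed here. Worms were age-synchronised by egg-laying on plates of NGM, the standard nematode agar, with Ampicillin and 1 mM IPTG at 20 °C. They stayed on the EV bacteria from hatching until collection, and the bacteria had been induced for 3 h at 37 °C with 5 mM IPTG. About 200 adults were frozen per sample, and total RNA was extracted with Trizol and spin columns. The labels do not give the strain or the sex of the worms, nor do they say that the 4 samples came from separate cultures, so the spread between them may be technical in part. The sources used here give neither the method of RNA selection nor the strandedness of the libraries.

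The gonad of an adult hermaphrodite makes oocytes that are loaded with messages for the embryo, and embryos develop inside the uterus. The intestine, the main metabolic organ, makes yolk proteins called vitellogenins and secretes them for uptake by the oocytes. The hermaphrodite germline makes its sperm before it switches to oocytes. Body wall muscle, pharynx, neurons, hypodermis and a few small cell types complete the animal. A whole-worm library mixes all of these, and fewer cells of a type cannot be told apart from less RNA per cell.

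Sequencing gave between 18710833 and 23608608 counts on genes per sample, over 20871 genes. Between 17241 and 17655 genes had at least 1 count in a sample, 15408 had counts in all 4, and 1040 had none in any. A count of 0 allows up to 3 counts, which is 0.127 to 0.160 CPM (counts scaled to library size) depending on the sample, and covers counting error only. Levels are given as FPKM, the authors' fragment count scaled by gene length and library size, which allows one gene to be set against another. A gene is called expressed at a mean of at least 1 FPKM over the 4 samples. By that measure 11612 genes were expressed, 55.6% of the table, and 10615 of them reached 1 FPKM in every sample. Protein-coding genes made up 10988 of the expressed genes, 60.1% of the 18269 listed, and their median level was 19.2 to 19.4 FPKM in the 4 samples.

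RNA was concentrated in few genes. The 115 genes at 1000 FPKM or more took 21.7 ± 0.845% of all counts (SD, n = 4, as for every error below). The 1266 genes between 100 and 1000 FPKM took 36.1 ± 0.307%, and the 5411 genes between 10 and 100 FPKM took 39.3 ± 0.599%. The 4820 genes between 1 and 10 FPKM added 2.71 ± 0.0359%, and the 8219 genes with counts but under 1 FPKM only 0.266 ± 0.00333%. Ordered by counts, the top 10 genes held 9.18 ± 0.598%, the top 100 held 22.6 ± 0.835%, and the top 1000 held 56.7%. The number of genes needed for 50% of the counts was 714, 669, 738 and 693 in EV samples 1 to 4, so sample 2 was the most concentrated and sample 3 the least. A share of counts favours long genes. Genes at 1000 FPKM or more had a median length of 706 bases, against 1468 bases for those between 10 and 100 FPKM.

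**Figure D1:**
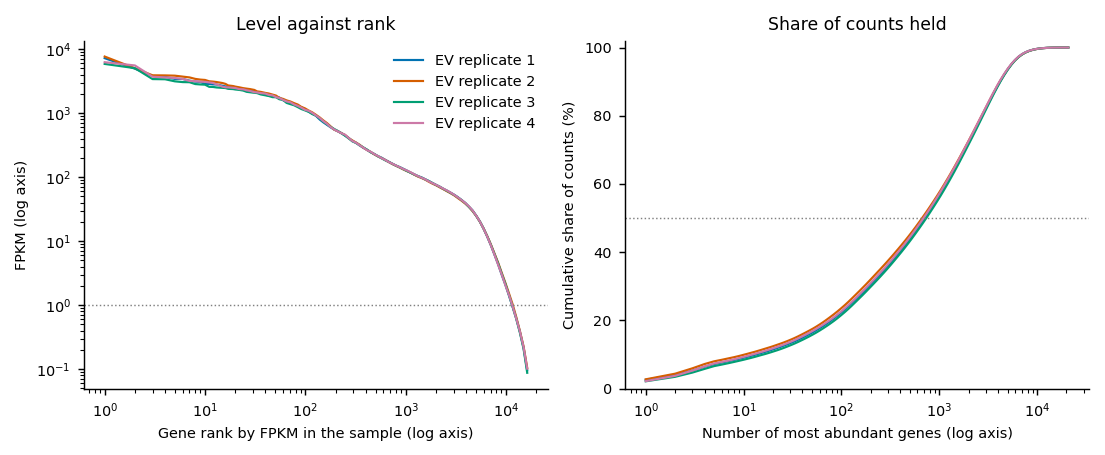
Left, FPKM (log axis) against the rank of the gene in its sample (log axis). Right, cumulative share of counts in percent against the number of most abundant genes (log axis), with 1 line per EV sample in both panels. The lines nearly coincide, and 669 to 738 genes hold 50% of the counts.

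The gene with the highest level in these libraries was rrn-3.1, a gene for the large (26S) ribosomal RNA. It lies on chromosome I, positions 15064838 to 15068346 on the plus strand (build WBcel235 here and below). It read 7205, 7641, 5859 and 6234 FPKM in EV samples 1 to 4, a mean of 6735 ± 829. Samples 1 and 2 were the high ones. Second came eef-1A.1, elongation factor 1 alpha, which brings charged tRNA to the ribosome, on chromosome III from 6970026 to 6971712 on the minus strand. It read 4939, 5009, 5032 and 5546 FPKM, highest in sample 4. A near-identical second copy, eef-1A.2 on the X chromosome, was at 111 FPKM, and the division of reads that match both is not stated.

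Ribosomal protein genes filled the top of the list. Of the 30 most abundant genes 19 encoded ribosomal proteins, as did 62 of the top 100 and 68 of the 115 at 1000 FPKM or more. Together the 83 genes took 8.43, 8.95, 8.13 and 8.41% of counts in EV samples 1 to 4, a mean of 8.48 ± 0.342%, and, since they are short, 18.5 ± 0.785% of summed FPKM. Sample 2 held the largest share and sample 3 the smallest.

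The 31 small-subunit proteins had a median of 1852 FPKM and the 52 large-subunit proteins one of 1482 FPKM, against 1.64 FPKM over all genes of the table. The small-subunit gene rps-25, on chromosome IV from 5947093 to 5947605, led the family with 3785, 3876, 3396 and 3698 FPKM. Its neighbour in the order, rps-23, averaged 3508 ± 150 FPKM and was below rps-25 in each of the 4 samples. The large-subunit gene rpl-38 followed with 3675, 3891, 3035 and 3417 FPKM, and rpl-41.2 with 3409, 3840, 3047 and 3608 FPKM. Both were highest in sample 2 and lowest in sample 3. The deposited table lists rpl-41.2 as a pseudogene, whereas Ensembl lists it as protein coding. The lowest small-subunit member was rps-22, still at 683 ± 70.3 FPKM. On the large-subunit side rpl-42 stood apart from the family with a mean of 0.101 FPKM and no counts in samples 1 and 4, while rpl-36.A, on the same chromosome, was among the top 10 genes at 3102 ± 239 FPKM.

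**Figure D2:**
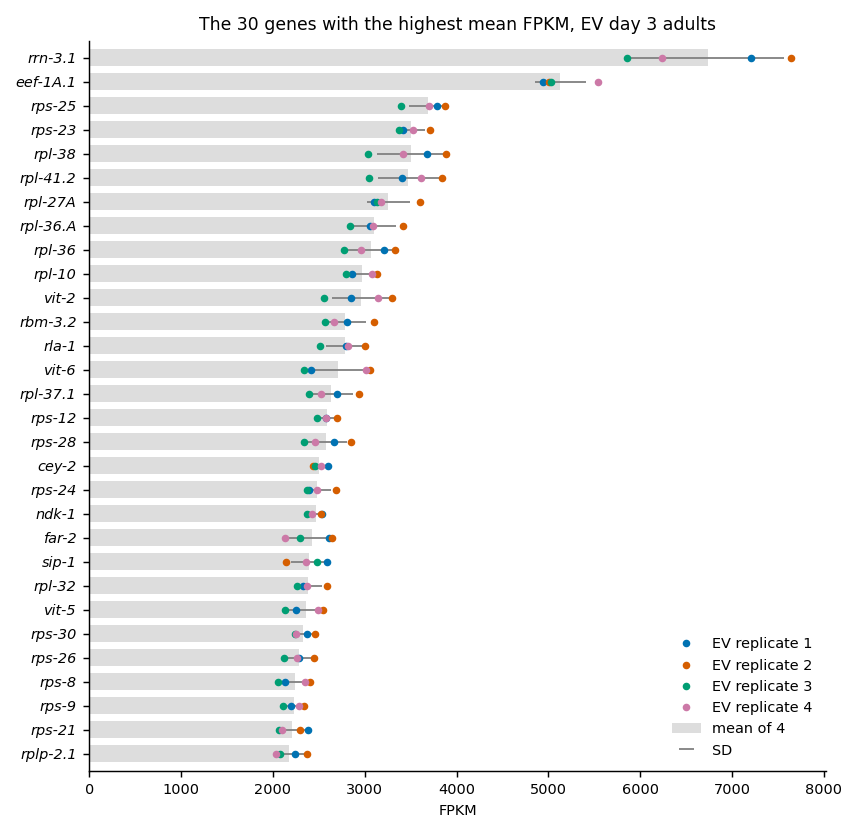
FPKM (horizontal axis) of the 30 genes with the highest mean, with points for the 4 EV samples, a bar for their mean and a line for the SD. Ribosomal protein genes are 19 of the 30, and the points of rrn-3.1 run from 5859 to 7641 FPKM.

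The rest of the translation and protein quality machinery was abundant at a lower tier. The 6 elongation factors had a median of 1230 FPKM, with eef-1G at 1252 ± 28.4 FPKM and eef-2, the translocase, at 1261 ± 46.0. All 33 aminoacyl-tRNA synthetase genes, which charge tRNAs, were expressed at a median of 67.3 FPKM. All 70 genes for proteins of the mitochondrial ribosome were expressed at a median of 55.2 FPKM. The 33 proteasome subunits, which degrade ubiquitin-tagged proteins, had a median of 248 FPKM, and the 8 subunits of the CCT chaperonin, which folds actin and tubulin, one of 220 FPKM. Ubiquitin itself was represented by ubq-2, a fusion with a ribosomal protein, at 2173, 2327, 1926 and 2039 FPKM.

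Constitutive chaperones were high and inducible ones low. The cytosolic chaperone hsp-90 read 1693, 1690, 1645 and 1801 FPKM, and the constitutive Hsp70 hsp-1 read 1399, 1479, 1351 and 1518 FPKM. The mitochondrial Hsp70 hsp-6, often used as a readout of mitochondrial stress, averaged 397 ± 15.04 FPKM. In the list of 21 heat shock genes 16 were expressed. The small heat shock gene hsp-16.2 was at 0.927 FPKM and the inducible hsp-70 at 1.60 FPKM. Genes of the hsp-16 group are close copies of each other, so their single values are uncertain. In contrast, sip-1, a small heat shock protein of the embryo, was the 22nd most abundant gene at 2586, 2142, 2477 and 2359 FPKM, lowest in sample 2.

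Yolk protein genes were the most abundant tissue-restricted genes by counts among the lists examined. The 6 vitellogenin genes took 4.93 ± 0.519% of all counts, with 4.59, 5.52, 4.41 and 5.22% in EV samples 1 to 4. As long genes they made up 1.31% of summed FPKM, and their median level was 1549 FPKM. The X-linked vit-2 (5101042 to 5106169, plus strand) read 2854, 3293, 2560 and 3147 FPKM and held 1.49 ± 0.144% of all counts. The only member off the X chromosome, vit-6 on chromosome IV (8261157 to 8266459, plus strand), read 2420, 3056, 2335 and 3011 FPKM. For both genes samples 2 and 4 were higher than samples 1 and 3.

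The X-linked vit-5 read 2248, 2550, 2132 and 2496 FPKM, vit-4 693.8, 833.6, 657.5 and 780.3 FPKM, and vit-3 545.8, 716.6, 537.2 and 640.0 FPKM. These genes are near-identical copies, as are vit-1 and vit-2, so the division of counts within each set is uncertain. Whether reads that match several copies were counted or dropped is not stated, so the sum may be too low. The lowest member, vit-1, read 289.8, 497.6, 304.7 and 419.4 FPKM and had the widest relative spread of the family. Its coefficient of variation (CV, the SD of normalised CPM over its mean) was 26.2%. All 6 vitellogenins were highest in sample 2, and 5 of the 6 were lowest in sample 3. The oocyte receptor that takes up yolk, rme-2, was at 453 FPKM.

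Other secreted and lipid-handling products stood near the yolk genes. The fatty acid and retinol binding protein gene far-2 read 2606, 2645, 2299 and 2131 FPKM. All 9 genes for intracellular lipid-binding proteins were expressed, led by lbp-9 at 1345 ± 36.1 FPKM. Among saposin-like proteins, small proteins that interact with membranes, 19 of 26 were expressed, led by spp-5 at 1448 ± 124 FPKM and spp-14 at 1272 ± 127 FPKM, both on the X chromosome. The genes for aspartyl and cysteine proteases included cpr-6 at 633 ± 20.97, cpl-1 at 621 ± 56.7 and asp-6 at 554 ± 8.25 FPKM.

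The germline and its oocytes were represented by every marker looked for. All 24 genes of the list were expressed, from 28.2 FPKM for rec-8, a meiotic cohesin, to 2153 FPKM for cpg-2, a chondroitin proteoglycan of the eggshell. Their median was 519 FPKM, and together they took 2.58, 2.43, 2.55 and 2.57% of counts in EV samples 1 to 4. The eggshell gene cpg-2 read 2225, 1945, 2248 and 2194 FPKM, lowest in sample 2.

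Levels within the list differed by role. The 5 eggshell and permeability barrier genes ran from 725 to 2153 FPKM and took 1.09 ± 0.0334% of counts, with cbd-1, a chitin-binding protein, at 725 ± 41.3, cpg-1 at 955 and perm-2 at 1206 ± 85.0 FPKM. The 9 maternal RNA-binding regulators, which control translation of stored messages, ran from 86.4 FPKM for pie-1 to 1154 FPKM for pos-1, with spn-4 at 846, oma-2 at 646, mex-5 at 560, puf-5 at 529 and gld-1 at 510 FPKM. The 4 meiotic chromosome proteins were lower, with a median of 48.4 FPKM, the highest being him-3 at 111 FPKM. Of the P granule proteins, components of germline RNA bodies, cgh-1 was at 1139, pgl-1 at 203 and glh-1 at 142 FPKM. The receptor glp-1, which keeps germline stem cells dividing, was at 63.8 FPKM. Outside the list, cey-2, a Y-box RNA-binding protein of the germline, was the 18th most abundant gene at 2598, 2432, 2458 and 2529 FPKM.

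Argonaute proteins carry small RNAs, many of them in the germline. Of 16 genes 14 were expressed. The 22G-RNA Argonautes wago-1 and hrde-1 were at 331 ± 12.6 and 213 ± 10.7 FPKM, csr-1 at 111 FPKM and the piRNA Argonaute prg-1 at 87.1 FPKM. The Argonautes of spermatogenesis, alg-3 and alg-4, were at 0.0396 and 0.00305 FPKM.

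Genes of sperm were near the floor. Of 18 sperm genes 3 were expressed, the median was 0.0704 FPKM, and the whole list took 0.00448, 0.00401, 0.00422 and 0.00415% of counts in EV samples 1 to 4. The highest was fog-1 at 15.4, 13.1, 14.5 and 14.8 FPKM. This gene encodes a regulator of sperm fate in the germline. Next came spe-41, a channel of the sperm membrane, at 2.86 ± 0.347 FPKM. Of 10 major sperm protein genes, for the cytoskeletal protein of nematode sperm, 1 was expressed, msp-31 at 2.33, 3.02, 1.33 and 1.21 FPKM, and 2 had no counts in any sample. The msp genes are near-identical copies, so single members are uncertain. Early zygotic genes of the embryo were likewise low. Of 8 such genes pes-10 at 2.75 FPKM and tbx-37 at 1.41 FPKM were expressed, while med-1 and tbx-35, which specify early lineages, had no counts.

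**Figure D3:**
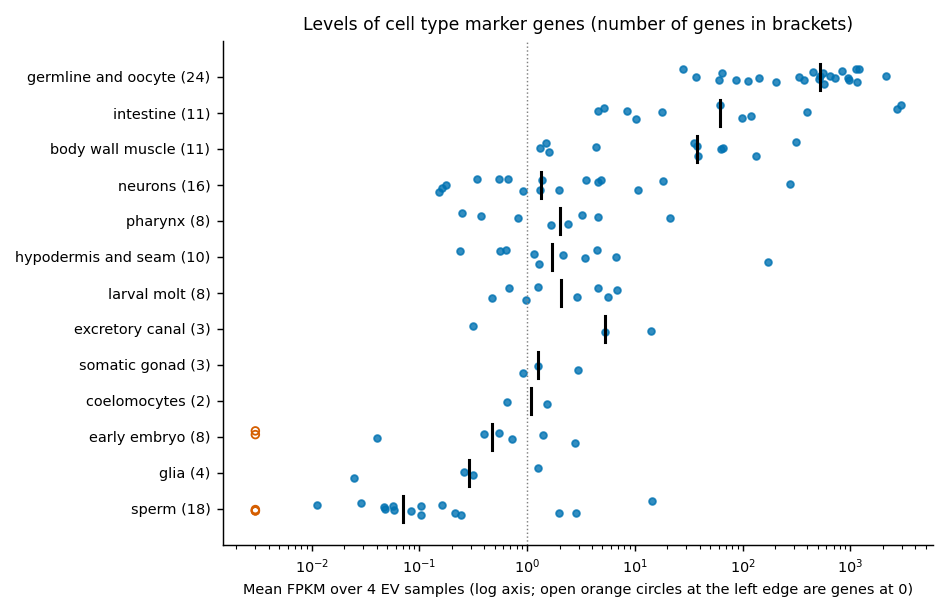
Mean FPKM over the 4 EV samples (horizontal log axis) of the marker genes of each tissue or cell type, 1 point per gene, with a black bar for the median of the list and open circles for genes at 0. All 24 germline and oocyte markers lie above 1 FPKM (dotted line), and 3 of the 18 sperm genes do.

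The intestine, muscle and neuron lists had lower medians than the germline list. All 11 intestine markers were expressed at a median of 61.7 FPKM. That list holds vit-2 and vit-6, and without them its 9 genes took 0.0964, 0.124, 0.103 and 0.115% of counts. The digestive protease asp-1 read 337.7, 467.2, 369.8 and 424.2 FPKM, and act-5, the actin of the intestinal brush border, read 104.1, 140.5, 105.0 and 131.4 FPKM. In both genes samples 2 and 4 were higher than samples 1 and 3, as in vit-2 and vit-6. The peptide transporter pept-1 read 4.05, 12.2, 7.04 and 10.8 FPKM, again with samples 2 and 4 on top. Not every marker had this order. Of the 11 markers 7 were highest in sample 2, 2 in sample 1, 1 in sample 3 and 1 in sample 4, while 3 were lowest in sample 2. The GATA factors that set intestinal fate, elt-2 and elt-7, were at 5.23 and 4.59 FPKM.

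All 11 body wall muscle markers were expressed, at a median of 37.4 FPKM and 0.111 ± 0.0127% of counts. The troponin C gene pat-10 read 295.5, 374.3, 314.1 and 274.4 FPKM. The major myosin heavy chain unc-54 read 41.5, 42.5, 32.4 and 33.3 FPKM, and the myosin light chain mlc-2 read 157.5, 149.4, 125.0 and 102.8 FPKM. Samples 1 and 2 were higher than samples 3 and 4 in both myosin genes. The giant protein gene unc-89, which organises the sarcomere, was the lowest at 1.31 FPKM. In the pharynx, the feeding organ, 5 of 8 markers were expressed, with tni-4, a troponin I, at 20.5, 24.7, 19.8 and 19.8 FPKM and myo-2, a pharyngeal myosin, at 2.49, 3.42, 1.59 and 2.02 FPKM, both highest in sample 2.

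Markers of neurons were mostly low. Of 16 neuronal markers 9 were expressed, with a median of 1.35 FPKM over the list and 0.0341 ± 0.000964% of counts. The synaptic vesicle protein gene snb-1 stood far above the rest at 286.6, 263.6, 276.9 and 273.3 FPKM. The neuropeptide-processing enzymes egl-21 and egl-3 were at 18.1 and 10.7 FPKM, and unc-25, the enzyme that makes GABA, was at 3.55 FPKM. The GABA transporter unc-47 was lowest at 0.152 FPKM. Neuropeptide genes themselves were widely detected. All 30 flp genes were expressed, led by flp-28 at 28.7 FPKM, as were 58 of 75 nlp genes, led by nlp-40, a signal released by the intestine, at 136 ± 2.95 FPKM. Of 36 insulin-like peptide genes 17 were expressed, led by ins-19 at 10.05 FPKM.

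The hypodermis, which secretes the cuticle, showed 7 of 10 markers, with the adult cuticle collagen col-19 at 162.3, 198.0, 168.8 and 166.6 FPKM. Of 149 genes named col for collagens 68 were expressed, taking 0.672, 0.877, 0.964 and 0.790% of counts in samples 1 to 4. The most abundant, col-122, read 696.9, 922.1, 950.1 and 862.4 FPKM, followed by col-181 at 814 ± 130 and col-106 at 719 ± 101 FPKM. All 3 were lowest in sample 1 and highest in sample 3. Genes of larval molting were expressed in 5 of 8 cases at a median of 2.08 FPKM. The small lists gave 1 of 4 glial, 1 of 2 coelomocyte, 2 of 3 excretory and 2 of 3 somatic gonad markers at 1 FPKM or more.

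Energy metabolism was expressed almost without gaps. Of 18 glycolytic genes 17 were expressed at a median of 121.7 FPKM, with aldo-2, an aldolase, at 539 ± 12.96 and enol-1, enolase, at 477 ± 17.4 FPKM. All 20 citric acid cycle genes were expressed at a median of 112 FPKM. Of 35 nuclear genes for the respiratory chain and ATP synthase 34 were expressed at a median of 253 FPKM, led by atp-2 at 1092, 1071, 1048 and 1168 FPKM. The exception was the cytochrome c copy cyc-2.2 at 0.0742 FPKM, while cyc-2.1 was at 750 ± 8.40 FPKM. All 21 subunit genes of the proton-pumping vacuolar ATPase were expressed at a median of 128 FPKM. The target of the other group's feeding, mtch-1, is on chromosome II from 7372615 to 7374166 on the minus strand. In these controls it read 187.7, 204.1, 196.3 and 207.3 FPKM, a mean of 199 ± 8.75 and the 576th highest of all genes.

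The mitochondrial genome took 0.739 ± 0.0598% of counts. All 12 of its protein genes were expressed and 9 reached 100 FPKM. The ATP synthase subunit ATP6 read 1425, 1426, 1700 and 1566 FPKM, and the cytochrome c oxidase genes COX2, COX3 and COX1 averaged 1468, 1175 and 1059 FPKM. Subunits of NADH dehydrogenase were lower, from ND1 at 499 FPKM to ND4L at 1.52 FPKM. Among them ND2 read 34.8, 50.7, 83.4 and 85.5 FPKM, with samples 3 and 4 above samples 1 and 2 and a CV of 39.0%. Mitochondrial genes are transcribed together and then cut apart, and these values do not separate the joint precursor from its pieces.

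Large gene families differed widely in how many members were expressed. Of 799 chemoreceptor genes, which act in single sensory neurons, 14 were expressed and 142 had no counts in any sample. The highest was srh-237 at 4.41, 5.89, 4.73 and 7.40 FPKM. Of 201 C-type lectins, secreted sugar-binding proteins, 58 were expressed, yet clec-87 was at 1697, 1529, 1565 and 1577 FPKM. Of 348 F-box genes, for substrate adaptors of ubiquitin ligases, 137 were expressed, led by fbxa-215 at 246 ± 7.53 FPKM. Of 257 nuclear hormone receptors 132 were expressed, led by nhr-49, a regulator of fat metabolism, at 45.2 ± 1.14 FPKM.

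Detoxification families lay near the 60.1% of all protein-coding genes. The number of expressed members was 45 of 79 for cytochrome P450 genes, 43 of 66 for UDP-glycosyltransferases and 33 of 49 for glutathione S-transferases, whose leading members were cyp-31A2 at 105 ± 6.96, ugt-62 at 107 ± 9.64 and gst-7 at 368 ± 24.2 FPKM. The genes cyp-31A2, cyp-31A3 and cyp-31A5 are close copies and uncertain singly. Of 16 lysozymes, enzymes against bacteria, 8 were expressed, led by ilys-5 at 530 ± 37.9 and lys-1 at 310 ± 41.7 FPKM. In the cytoskeleton the tubulin tbb-2 was at 981 ± 39.0 FPKM and tba-2 at 671 ± 22.3 FPKM, and the actin act-2 at 1015 ± 63.3 FPKM. Reads of the actin genes act-1 and act-2 are hard to separate, and act-1 was listed at 86.7 ± 5.66 FPKM.

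By the biotype in the deposited table, protein-coding genes took 96.6, 96.4, 97.1 and 97.1% of counts. Ribosomal RNA took 2.92, 3.14, 2.46 and 2.52% on 8 genes, nearly all of it nuclear. The method of RNA selection is not given, so these shares describe the libraries and may differ from those in worm RNA. Ribosomal RNA genes lie in repeats, so reads of single copies cannot be separated. After rrn-3.1 came rrn-3.56 at 1304 FPKM and the gene pair F31C3.8 and F31C3.7, of equal length, at 657 and 616 FPKM. Pseudogenes took 0.304 ± 0.0190% of counts, of which 0.127% lay on 27 genes that Ensembl lists as protein coding. The class ncRNA took 0.111 ± 0.00774%, with 390 of 1657 genes at a mean of 1 FPKM or more. Of 141 snoRNA genes 37, of 45 miRNA genes 3 and of 34 tRNA genes 3 were expressed, and none of 13 snRNA genes. The highest snRNA, smy-1, was at 0.924 FPKM. Mature small RNAs are shorter than what such libraries usually keep.

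Many non-coding genes lie within other genes. Of the ncRNA genes called expressed, 255 were at most 21 bases long. At that length very few reads reach 1 FPKM, as in 21ur-8982 at 1.01 FPKM from a mean of 0.5 counts, and 19 of all 519 such genes had a count in every sample. By Ensembl coordinates 62.1% of all ncRNA genes called expressed overlapped a protein-coding gene, as did 89.2% of expressed snoRNA genes. Since the counting is not stated to use strand, reads of host and guest cannot be told apart there. The overlap among all genes of these classes is not given here. These shares therefore do not show that expressed members overlap other genes more often than the rest. The piRNA gene 21ur-10153, inside lin-66, reached 641 FPKM from 281.5 counts, and F20C5.10, inside elli-1, reached 865.4, 919.5, 874.3 and 826.3 FPKM. Among the ncRNA genes of at least 200 bases 44 of 344 were expressed. The highest of these was tts-1, a long non-coding RNA of 711 bases known for binding ribosomes, at 214 FPKM from 3134 counts and with no overlap.

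The chromosomes differed in how much of the transcriptome they carried. In C. elegans the X chromosome is kept largely silent in the germline, whereas genes with germline functions lie mostly on autosomes. Whether this bears on the values below was not tested. The X chromosome held 14.5% of the protein-coding genes of the table but 8.16% of all counts. Chromosome V, the largest by gene number, held 22.6% of the genes and 14.2% of counts, and chromosome II 17.6% and 14.3%. Chromosomes I and III held more counts than genes, with 14.9% of genes and 20.6% of counts for I and 14.2% of genes and 20.5% of counts for III. Chromosome IV was between these, with 16.1% of genes and 18.3% of counts. The share of protein-coding genes that were expressed was highest on III at 72.3% and I at 69.1%, and lowest on V at 48.3%, where 498 of the 799 chemoreceptor genes lie.

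X-linked genes were on in nearly the same proportion as the genes of all autosomes pooled, at a lower level. Of protein-coding genes 58.2% were expressed on X and 60.4% on the autosomes, but 23.6% on X and 38.7% on the autosomes exceeded 10 FPKM. The median of expressed genes was 7.27 FPKM for 1544 genes on X and 24.6 FPKM for 9432 genes on the autosomes. Single autosomes differed, with medians of expressed genes from 12.7 FPKM on V to 33.6 FPKM on I, all above X. The ratio of X to autosome medians was 0.280, 0.292, 0.291 and 0.295 in EV samples 1 to 4, a mean of 0.289 ± 0.00642. The ratio depends on which genes count as expressed, and it was 0.588 when every protein-coding gene was used. Over every protein-coding gene X was not the lowest chromosome, with a median of 1.66 FPKM against 0.859 FPKM on V. Percentiles of expressed genes were lower on X throughout. The 10th percentile of expressed genes was 1.45 FPKM on X and 1.83 FPKM on the autosomes, the 75th percentile 16.98 and 62.0 FPKM, the 90th percentile 42.9 and 125 FPKM, and the 95th percentile 82.5 and 213 FPKM.

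None of the 24 germline and oocyte markers lies on X. The X chromosome had 51 of the 1000 most abundant genes, 4 of the top 100, and 2 of the top 30, which were vit-2 and vit-5. Its 5 vitellogenins alone made 42.1, 46.0, 39.8 and 44.5% of all counts on X. Expression also differed by position within a chromosome. Each chromosome was cut into a left, a middle and a right segment of equal length. With the autosomes pooled, 65.1% of protein-coding genes were expressed in the middle segments, 58.3% in the left and 57.5% in the right ones. The middle segment was highest on II, IV and V but not on I and III. On I the left segment was highest, at 75.4% against 71.8% in the middle. On III the right segment was highest, at 75.3% against 72.7% in the middle. The right segment of chromosome V was lowest at 39.9%. On X the shares were 58.5, 59.6 and 58.0% from left to right.

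**Figure D4:**
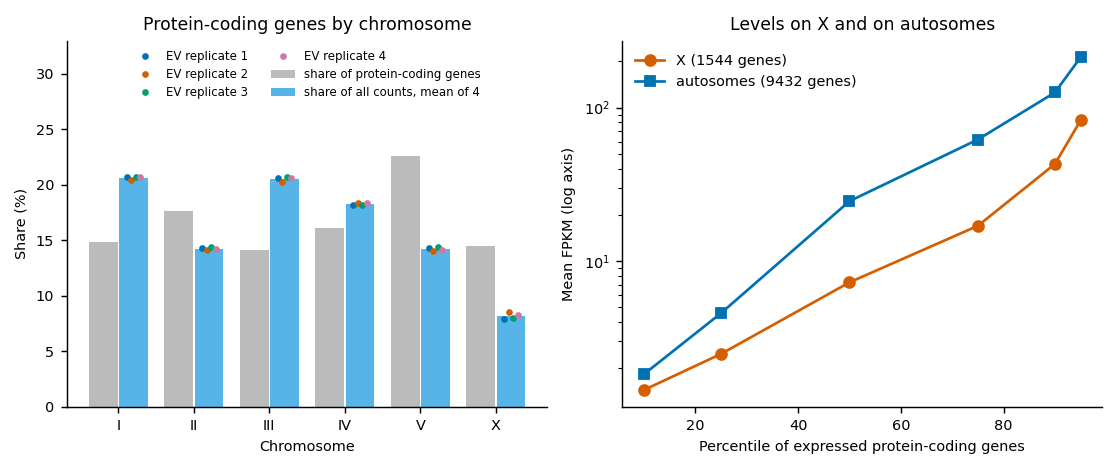
Left, the share of protein-coding genes and the share of counts of each chromosome in percent, with points for the 4 EV samples. Right, mean FPKM (log axis) at percentiles of the expressed protein-coding genes on X and on the autosomes, where the 50th percentile is 7.27 FPKM on X and 24.6 FPKM on the autosomes.

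The 4 samples were close to each other but not identical beyond counting error. Pearson's r of log2 FPKM over genes lay between 0.982 and 0.986 for the 6 pairs, a description across genes, which are not independent. Among 7240 genes at 10 CPM or more, the median CV was 5.80%, 80.3% of genes had a CV under 10%, and 61 genes had a CV of 30% or more. Each of 12896 genes with a mean of at least 10 counts was tested for spread beyond Poisson counting error (chi-square test across the 4 samples, Benjamini-Hochberg adjusted p under 0.05). The test called 6342 of them, a background of 49.2%. Called genes were all 115 at 1000 FPKM or more, 77.8% between 100 and 1000 FPKM, 57.4% between 10 and 100 FPKM and 39.3% between 1 and 10 FPKM, in the order of the counts that give the test its power. Spread beyond counting, as edgeR's common biological coefficient of variation over these 12896 genes, was 9.86%. It was 8.56% for genes with a mean of at least 100 counts. This is 1 value fitted to all genes, so it cannot be set against the median CV of the 7240 genes above.

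The median CV was 17.6% between 1 and 10 FPKM, 5.95% between 10 and 100 FPKM, 4.60% between 100 and 1000 FPKM and 5.71% at 1000 FPKM or more. Among genes at 10 CPM or more the median CV also differed between gene groups. Proteasome subunits had a median CV of 3.41%, nuclear respiratory chain genes 3.34%, tubulins 3.58% and elongation factors 3.85%, which was 2.202% without sample 4. Germline and oocyte markers were at 5.79%, near the median of all genes. Of the 24, 23 were called, against 49.2% of all genes tested and 77.8% of those between 100 and 1000 FPKM, and 19 of the 24 were at 100 FPKM or more. Some lists of somatic genes had larger values, with medians of 12.5% for vitellogenins, 14.5% for intestine markers, 14.3% for muscle markers, 13.998% for cytochrome P450 genes and 16.3% for collagens. Others were near the median of all genes, with 5.50% for lipid-binding proteins, 5.87% for vacuolar ATPase subunits, 6.46% for actins and 6.76% for aspartyl and cysteine proteases. Pharynx markers gave 33.3% over 3 genes, which was 18.4% without sample 2.

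Members of a group often moved together, and different groups set different samples apart. Samples 2 and 3 were the most different pair by counts, with a chi-square of 14.1 per degree of freedom against 7.76 for samples 2 and 4, and 148 genes over 1.5-fold apart against 37 for samples 3 and 4. In sample 2 all 31 small-subunit ribosomal protein genes were above sample 3, at a median log2 difference of 0.16. So were 49 of 50 large-subunit genes, at 0.20, and all 6 vitellogenins, at 0.38. Over all genes 46.5% were higher in sample 2, at a median of -0.01. Genes of 1000 bases or less other than ribosomal protein genes had a median of 0.00 in that pair. By length class, genes of at most 883 bases were at 0.02 and those of 2564 bases or more at 0.04. The classes between were at -0.05 to -0.04. A role of gene length was not tested. Pharynx markers were 0.57 above the mean of the 4 samples in sample 2 and 0.50 below it in sample 3 (-0.50), as medians on the log2 scale.

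Other groups moved along other lines. Over their genes at 10 CPM or more, collagens had a median deviation of -0.29 in sample 1 and 0.19 in sample 3, and muscle markers deviated by 0.14, 0.18, -0.09 and -0.16 in samples 1 to 4. Intestine markers deviated by -0.15, 0.19, -0.15 and 0.13. Germline and oocyte markers stayed within 0.05 of the mean, with 0.05 in sample 1 and -0.04 in sample 2. In a principal component analysis of log2 CPM the first component held 44.0% of the variance between samples, with sample 2 at one end and sample 3 at the other, and the second held 34.6% and set sample 1 apart.

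**Figure D5:**
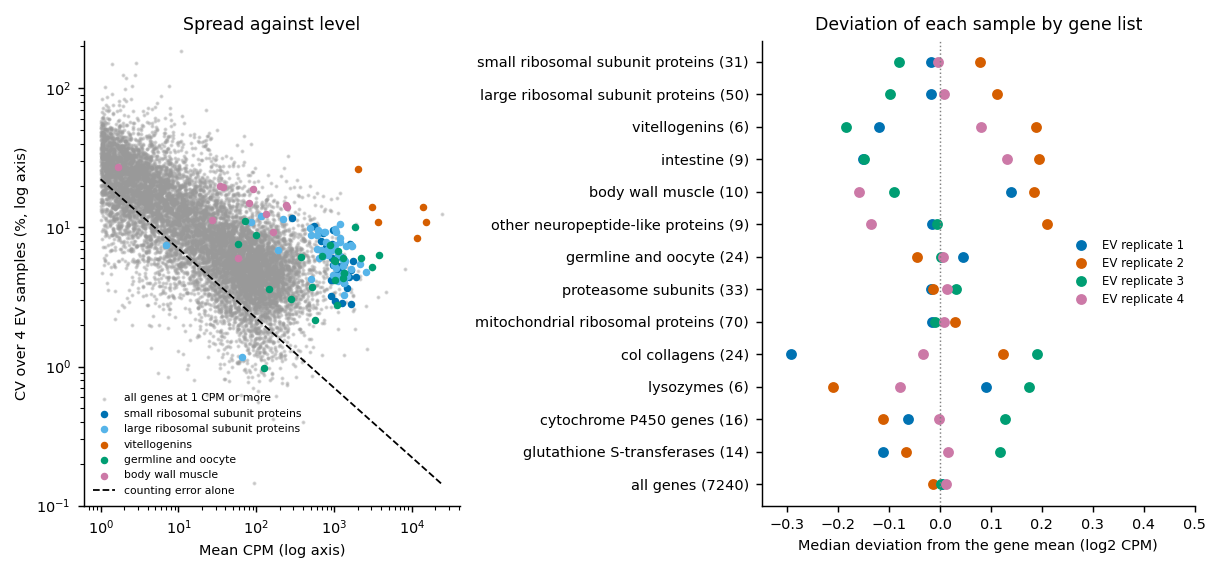
Left, the CV over the 4 EV samples in percent (log axis) against mean CPM (log axis), 1 point per gene, with 5 gene lists coloured and a dashed line for counting error alone. Right, the median deviation of each EV sample from the gene mean (log2 CPM) by list, with the number of genes at 10 CPM or more in brackets, where vitellogenins and ribosomal proteins have sample 2 at the high end and sample 3 at the low end.

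The most variable protein-coding gene at 10 CPM or more was B0393.8, on chromosome III from 4751878 to 4752370. It read 0.587, 4.72, 99.9 and 0.632 FPKM in EV samples 1 to 4, from 5, 36, 784 and 6 counts, so that its mean rests on sample 3. The next genes had their high values in other samples. The gene C06B3.6 read 30.6, 24.5, 7.20 and 7.10 FPKM with a CV of 69.5%, and faah-2, a fatty acid amide hydrolase, read 25.9, 18.9, 9.57 and 9.54 FPKM with a CV of 49.9%. The transcription factor gene mxl-3, which represses lipolysis in fed worms, read 33.4, 34.5, 15.7 and 12.8 FPKM. All 3 were higher in samples 1 and 2 than in samples 3 and 4. The cytochrome P450 gene cyp-13A5 was high in sample 1 alone at 12.6, 5.31, 3.75 and 4.34 FPKM. So was dgat-2, a triglyceride synthesis enzyme, at 33.4, 18.2, 17.3 and 12.1 FPKM. The metallothionein mtl-1, which binds metals, read 41.9, 21.2, 67.1 and 34.8 FPKM, and dhs-25, a short-chain dehydrogenase, read 43.3, 108, 44.9 and 70.3 FPKM. The gene pud-3 read 25.2, 53.7, 24.8 and 25.9 FPKM, high in sample 2 alone. These genes were picked by their spread, so their variation is a description.

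Among protein-coding genes at 10 CPM or more, the steadiest ones differed in level. Y105E8A.2 read 50.02, 49.6, 49.7 and 50.3 FPKM with a CV of 0.145%, madf-8 had a CV of 0.359%, and snr-2, a core protein of the spliceosomal particles, read 541.3, 535.3, 540.2 and 546.8 FPKM with a CV of 0.399%. Values this close lie below counting error, with a chi-square of 0.127 per degree of freedom for snr-2, and these genes too were picked by their spread. Of the genes often used as references in quantitative PCR, tba-1 was at 481 ± 18.97, cdc-42 at 207 ± 5.33, pmp-3 at 49.7 and ama-1, the large subunit of RNA polymerase II, at 43.7 FPKM. Of these cdc-42 had a CV of 2.60% and tba-1 one of 3.52%, whereas csq-1, a calcium-binding protein of muscle, read 23.6, 23.4, 17.96 and 16.9 FPKM with a CV of 17.5%.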

How the data were processed

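Whole-worm RNA-seq of the 4 EV samples was read from one table of the series. Reads were aligned and counted with HISAT2 2.0.5 and featureCounts 1.5.0-p3 on build WBcel235 and scaled with DESeq2 (version not given), per the submitters' processing notes. No source used here states the settings, the annotation release or the use of strand. Raw counts were used as deposited, per the file headers. FPKM are the authors' values, the counts over the deposited length of the gene, scaled by a total for each sample. The authors' size-factor normalised signal columns served only to check the scaling. Their deposited log2 fold changes and p-values compare the other group and were not used. The table had 0 columns without a sample, and no count lacked a gene identifier.

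Gene symbols came from Ensembl release 115 (20593 of 20871 genes matched, 278 did not, 11228 had a symbol other than the sequence name). CPM used TMM library sizes (edgeR 4.0.16, R 4.3.3). Log2 ratios used a pseudocount of 0.5 CPM. Spread was tested on counts by chi-square for genes with a mean of at least 10 counts, and tested on simulated data first. DESeq2 1.42.0 size factors were an alternative. Python 3.11.15, pandas 2.3.3 and SciPy 1.17.1 did the rest. Alternatives changed the FPKM threshold, the scaling, the count minimum, counts against FPKM as the share, and left out each sample in turn. The 50 gene lists were chosen with earlier results of these data known. Named genes were the 30 of highest FPKM, the 10 with most counts, the leading gene of each chromosome and biotype, up to 3 highest and the lowest member of each list, the 15 most and 10 least variable protein-coding genes at 10 CPM, and mtch-1. Further members of the lists were named to show roles after their values were seen.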

Additional observations from a re-analysis of the deposited data

Results flagged for a closer look

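A value was picked out when 1 of the 4 EV samples lay far from the other 3, relative to the whole range of the 4 (Dixon's test). Chance picks out about 1 in 20 such values, and 16 of 280 were picked here, or 5.71%. The rule does not weigh counting error, and the differences given below for cars-2 and pfd-6 are no larger than it. No explanation of the picked values was tested.

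In sample 1, vha-5, a subunit of the vacuolar ATPase, was low at 36.7 CPM, with the other samples between 44.1 and 45.3 CPM, and the excretory canal list that holds it was low at 0.00410% of counts against 0.00526 to 0.00534%. The chaperonin subunit cct-1 was high in sample 1 at 513 CPM against 464 to 467 CPM.

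In sample 2, the ribosomal protein gene rpl-27A was high at 1851 CPM against 1586 to 1615 CPM. The gene pud-3 was high at 43.0 CPM against 19.8 to 20.5 CPM, the pharyngeal troponin I gene tni-4 at 21.2 CPM against 16.8 to 17.5 CPM, and the aspartyl and cysteine proteases together at 0.646% of counts against 0.596 to 0.603%.

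In sample 3, B0393.8 was at 41.03 CPM against 0.241 to 1.94 CPM. Also high there were cars-2, a mitochondrial tRNA synthetase gene, at 8.06 CPM against 7.33 to 7.45 CPM, the chemoreceptor str-176 at 8.58 CPM against 6.32 to 6.69 CPM, and the coelomocyte gene cup-4 at 3.40 CPM against 1.73 to 1.89 CPM. Among lists, coelomocyte markers were at 0.000528% of counts against 0.000267 to 0.000288%, cytochrome P450 genes at 0.0915% against 0.0798 to 0.0813%, and glutathione S-transferases at 0.0920% against 0.0835 to 0.0847%.

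In sample 4, the ATP synthase subunit atp-1 was high at 1881 CPM against 1781 to 1798 CPM, and the prefoldin subunit pfd-6 at 84.2 CPM against 83.1 to 83.3 CPM. The gene pfd-6 was also among the 10 with the smallest CV.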

How the results depend on the processing

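No paired analysis was possible because no groups were compared. With shares of summed FPKM in place of counts, the top 10 genes held 5.17% and the top 100 held 26.6%, 482 genes made up 50%, ribosomal RNA was 1.31%, the mitochondrial genome 1.06%, germline and oocyte markers 1.86%, small-subunit ribosomal proteins 7.70%, large-subunit ones 10.8% and vitellogenins 1.31%. FPKM divides by gene length, which moves shares from long to short genes. The ratio of X to autosome medians was 0.347 for genes of at least 5 FPKM and 0.588 with no filter. The common biological coefficient of variation was 8.56% for genes of at least 100 mean counts, and 9.42 to 10.8% with each sample left out in turn. The number of expressed genes was 13326 at 0.5 FPKM and 9937 at 2 FPKM. Genes varying beyond counting error were 6310 with DESeq2 size factors and 4777 to 5310 with each sample left out. Of 56 values of the main results with a sample left out, 55 stayed within 1 SD, or within 1.5 times for counts of genes. The exception was the common biological coefficient of variation without sample 4. Leaving out 1 of 4 samples cannot shift their mean by as much as 1 SD. For shares of counts the outcome was therefore fixed, and it tells nothing of how steady they are. The other 88 results were shares of counts and the median CVs of 39 lists. With a sample left out they gave 352 values, of which 64 moved further than 1 SD. All 64 were median CVs, because the shares could not move that far. The fraction 64 of 352 therefore understates how often a median CV moved, and many median CVs depended on a single sample. With FPKM in place of counts or CPM, 47 of the 88 results moved. The median CV of elongation factors was 2.202% without sample 4 and that of pharynx markers 18.4% without sample 2. Leaving the germline and oocyte markers out gave a ratio of X to autosome medians of 0.291, but 24 genes are too few to move that median.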

Other observations

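By the protein domain given for each gene in the deposited table, RNA-recognition motif genes were almost completely expressed. Of 83 such genes 81 reached 1 FPKM, at a median of 70.3 FPKM, led by rbm-3.2. Of 82 tyrosine phosphatase domain genes 14 were expressed, at a median of 0.0843 FPKM, and the highest was egg-3, a regulator of the oocyte-to-embryo transition, at 151 FPKM. Ligand-gated ion channel genes were expressed in 16 of 97 cases. Of 264 protein kinase domain genes 164 were expressed, led by the cell cycle kinase cdk-1 at 315 FPKM, and of 74 homeobox genes 34, led by pal-1, whose message is stored in oocytes, at 148 FPKM.

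Genes with more exons were more often expressed. The share of protein-coding genes at 1 FPKM or more was 46.4% for genes of 1 exon and 65.3% for those of over 10 exons, yet no gene of over 10 exons reached 1000 FPKM, against 78 genes of 3 to 5 exons.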
